A study of Mus musculus with 29 samples.

Results

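The early progenitor timing genes are 8 genes chosen by name, Lin28a, Lin28b, Hmga1, Hmga2, Igf2bp1, Igf2bp2, Igf2bp3 and Nr6a1, of 50233 genes listed in the count tables. Their RNA was read in 5 groups of E17.5 mouse cortex on the C57BL/6J strain, and H3K27me3, the repressive trimethylation of histone H3 at lysine 27, was read at the same genes. The untreated RNA-seq holds 4 control pallia (C) and 3 pallia labelled as mutants (M) of the BAF dcKO_hGFAP-Cre line, in which BAF155 (gene Smarcc1) and BAF170 (gene Smarcc2), core subunits of the BAF chromatin remodelling complex, are floxed. The treated RNA-seq holds 4 wild type cortices given vehicle, 4 BAF dcKO_hGFAP-Cre cortices given vehicle and 4 given a Wnt inhibitor, which is ICG-001 injected daily into the pregnant dams. H3K27me3 ChIP-seq holds 4 control and 4 dcKO pallia. The deposited genotype of the untreated and ChIP-seq samples reads dcKO for the controls too, so these groups rest on the letters of the sample names (C, M and K), and the study's methods give the controls as heterozygous floxed littermates carrying Cre. The hGFAP promoter drives Cre in late progenitors, first in the medial and later in the dorsal and lateral pallium, so a cortex also holds cells that never expressed Cre. No source states that each library is a separate animal, so a p-value measures the spread between these libraries.

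These genes belong to a timing circuit first worked out in worms, where lin-28 and the let-7 microRNA set the order of larval cell fates. LIN28A and LIN28B are RNA-binding proteins that block the maturation of let-7, and let-7 in turn represses messages that carry matches to its seed, those of Lin28, Hmga2 and Igf2bp1 among them. HMGA1 and HMGA2 are AT-hook proteins that bind the minor groove of DNA and are abundant in young, fast-dividing progenitors. IGF2BP1, IGF2BP2 and IGF2BP3 bind and stabilise target messages such as that of Igf2. NR6A1, or germ cell nuclear factor, is an orphan nuclear receptor of the early embryo. In the cortex most of these genes are high in neuroepithelial cells and decline as neurogenesis proceeds.

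Several facts about the libraries bear on every value below. Depth ran from 11946658 to 28391046 assigned reads a library in the untreated and from 12514443 to 26600594 in the treated experiment. Smarcc1 and Smarcc2 lay above 80% of the control mean in 4 libraries labelled as mutants (M 2, dcKO vehicle 2, and Wnt inhibitor 1 and 2). Results are given with and without these 4, called the libraries at control level, a choice made after the data were seen. Wnt inhibitor 1 was close to the limit, at 80.5% for Smarcc1 and 88.1% for Smarcc2, below every wild type library. Whether it was dropped thus depends on the limit. Wnt inhibitor 4, which was kept, had 65.1% and 80.1%. The library M 2 had 245 and M 3 and M 4 had 128 and 135 CPM (reads of a gene scaled to library size) of Smarcc1, against 247 to 269 in C. The library dcKO vehicle 2 had 242 CPM of Smarcc1 against 133 to 138 in the others of its group and 245 to 299 in wild type, and the 4 Wnt inhibitor libraries had 214, 252, 140 and 173 CPM. Summed over the neuron markers (all 9 detected in every library), M 3 and M 4 had 6144 and 6345 CPM and M 2 had 7575 CPM, against 7095 to 7909 in C, and dcKO vehicle 1, 3 and 4 had 5969, 6151 and 6488 CPM and dcKO vehicle 2 had 7457 CPM, against 7401 to 7942 in wild type. Summed radial glia markers (11 of 11 detected) were 795 and 891 CPM in M 3 and M 4 and 1058 CPM in M 2 against 890 to 1102 in C. They were 863, 788 and 923 CPM in dcKO vehicle 1, 3 and 4 and 1073 CPM in dcKO vehicle 2, against 898 to 1174 in wild type. Endothelial and pericyte markers (8 of 8 detected) summed to 264 to 294 CPM in M against 295 to 345 in C. Of 4 spermatid markers, at most 2 had a read in any library, and their sum was 26.2 to 30.8 CPM in M 3, M 4 and dcKO vehicle 1, 3 and 4, 2.54 to 2.93 CPM in the 4 libraries at control level, 12.2 and 8.21 CPM in Wnt inhibitor 3 and 4, and at most 0.331 CPM in the controls. In bulk tissue, fewer cells of a type and less RNA per cell cannot be told apart. Same-numbered libraries of the 2 experiments deviated together from their group means over 16156 genes (r = 0.20 to 0.50 for C and wild type and 0.514 to 0.732 for M and dcKO vehicle, against -0.309 to 0.132 and -0.618 to 0.181 for other pairs). The untreated and vehicle comparisons were therefore not read as separate evidence.

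The sequence feature that the members share is a match to the let-7 seed, the bases 2 to 8 of the microRNA that pair with a message. Of 11 mature let-7 family members in RefSeq, 10 have the same seed, and let-7j differs in its last base. To show what the matches pair with, 3 of them are given with the seed in capitals:
mmu-let-7a-5p: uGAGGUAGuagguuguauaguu
mmu-miR-98-5p: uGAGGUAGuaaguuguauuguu
mmu-let-7j: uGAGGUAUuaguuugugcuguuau
The longest annotated 3′ UTR of each gene was searched on its sense strand for CTACCTC (a 7mer-m8 match), TACCTCA (7mer-A1) and CTACCTCA (8mer, which holds both of the others and was counted once). The 7mer-A1 leaves out the letter for base 8 and ends in an A, and it was counted as a match too. All 8 members held at least 1 match, as did 14.9% of 21037 protein-coding 3′ UTRs. Among UTRs between 0.5 and 2 times as long as that of a member, the share was 14.6% (Hmga1) to 42.0% (Igf2bp1). The count was 8 in Nr6a1, 7 in Hmga2, 5 in Lin28b, 5 in Igf2bp1, 2 in Lin28a, 2 in Igf2bp2, 1 in Hmga1 and 1 in Igf2bp3. Among UTRs between 0.5 and 2 times as long, at least as many matches were found in 0.0219% for Nr6a1, 0.0573% for Hmga2, 0.284% for Lin28b and 0.405% for Igf2bp1. These shares are 1, 4, 13 and 10 UTRs, and the member itself may be counted among them. The shares were 4.87% for Lin28a, 2.69% for Igf2bp2, 14.6% for Hmga1 and 21.9% for Igf2bp3, so the single matches of the last pair were common for their length. The members were named as genes of a circuit that includes let-7, so many matches were built into the choice and are not a finding. A match is a description of letters and not a measured site. The 5 matches of Lin28b and the 8mers of Lin28a and Hmga2 are printed in mm10 with 15 bases before each, since these are the textbook partners of let-7, and the match is in capitals:
Lin28b site 1, 8mer, chr10:45381022-45381044: acccgggcgggaagtCTACCTCA
Lin28b site 2, 7mer-m8, chr10:45378648-45378670: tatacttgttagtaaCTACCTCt
Lin28b site 3, 7mer-m8, chr10:45378476-45378498: gtttacagcacatggCTACCTCc
Lin28b site 4, 7mer-m8, chr10:45377060-45377082: aaatgatggcaccgaCTACCTCt
Lin28b site 5, 7mer-A1, chr10:45376870-45376892: attcagtgtttagatTACCTCAc
Lin28a site 1, 8mer, chr4:134005189-134005211: gcacagcctgttgaaCTACCTCA
Lin28a site 2, 8mer, chr4:134004551-134004573: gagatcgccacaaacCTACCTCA
Hmga2 site 1, 8mer, chr10:120364224-120364246: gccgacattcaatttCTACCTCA
All 8 printed stretches lie on the minus strand. The first 8mer of Lin28b lay 36 bases and that of Hmga2 58 bases from the stop codon.

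**Figure D1:**
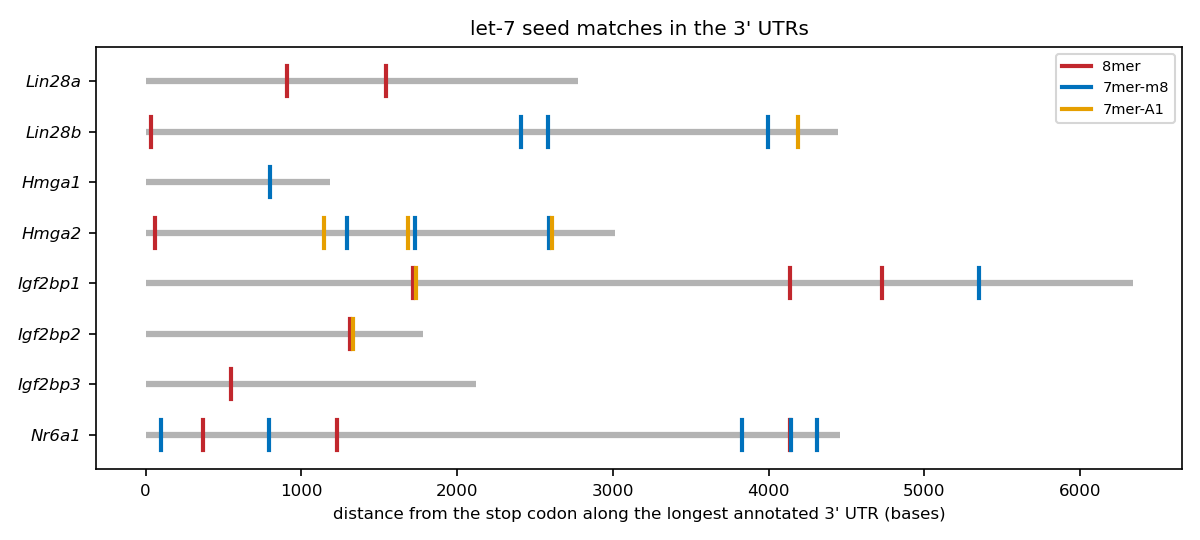
Matches to the let-7 seed along the longest annotated 3′ UTR of each gene, with the distance from the stop codon in bases on the x axis, a grey bar for the UTR and a tick for each match coloured by kind. Nr6a1 with 8 and Hmga2 with 7 matches carry the most, and Hmga1 and Igf2bp3 carry 1 each.

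At this stage the members were expressed at very different levels. Scaled also to annotated exon length (RPKM, the CPM per kilobase of exon), the order in untreated controls was Igf2bp2 (6.46 ± 0.646), Igf2bp1 (4.61 ± 0.705), Hmga1 (3.47 ± 1.13), Igf2bp3 (2.77 ± 0.262), Lin28b (1.13 ± 0.251), Nr6a1 (0.852 ± 0.0713), Hmga2 (0.138 ± 0.0434) and Lin28a (0.0159 ± 0.00673; SD, n = 4). The ranges over libraries met between Igf2bp1 and Hmga1, between Hmga1 and Igf2bp3, and between Lin28b and Nr6a1, and did not meet between the other neighbours. RPKM here is the only scale used between genes. The order and the neighbours that met were the same in wild type vehicle cortices. Hmga1 has a near-identical copy, Hmga1b on another chromosome (4.59 ± 1.47 CPM in C, where Hmga1 was at 7.37 ± 2.40 CPM), so reads could be split between them and its level is uncertain. Igf2bp3 shares 1529 exonic bases with Malsu1 on the opposite strand, and the strand setting of the counting is not given in the sources used here.

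Lin28a (ENSMUSG00000050966, chr4:134003330-134018841, minus strand) was at the limit of detection. No library held more than 6 reads of it, and the groups summed to 6 reads in C, 7 in M, 6 in wild type vehicle, 9 in dcKO vehicle and 7 with the Wnt inhibitor. A count of 0 in a library allows up to 3 counts, so no fold is given, and the gene was not among those tested. A difference in Lin28a was not detectable at this depth.

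Lin28b (ENSMUSG00000063804, chr10:45376620-45486395, minus strand), the LIN28 paralogue expressed in this tissue, was higher in M 3, M 4 and dcKO vehicle 1, 3 and 4 than in every control library of the same experiment. Wnt inhibitor 3, whose Smarcc1 and Smarcc2 were also low, had 7.29 CPM, within the wild type range. In C its level was 13.3, 9.97, 7.86 and 9.67 CPM, and in M 2, M 3 and M 4 it was 5.46, 15.4 and 15.5 CPM. Both M 3 and M 4 exceeded every control and M 2 lay below every control. In wild type vehicle it was 6.55, 8.75, 7.61 and 7.59 CPM, and in dcKO vehicle 10.9, 4.32, 14.7 and 13.3 CPM, where replicate 2 was again below all controls and the other 3 above them. With all libraries Lin28b did not pass the test in either comparison, with log2 fold changes of 0.28 ± 0.34 (SE, edgeR quasi-likelihood adjusted p = 0.730) and 0.50 ± 0.30 (adjusted p = 0.647). Without the libraries at control level it rose by 0.60 ± 0.17 (edgeR adjusted p = 0.0495) in the untreated and by 0.76 ± 0.17 (edgeR adjusted p = 0.0266) in the vehicle comparison, and DESeq2 on the same libraries gave adjusted p = 0.0121 and 0.0016. Dropping dcKO vehicle 2 but keeping all 4 inhibitor libraries in the fit gave 0.77 with an edgeR adjusted p of 0.0547. Without M 3 or without M 4 the untreated value was 0.08. Summed neuron markers were lower in the same libraries (above). The spermatid sum, in which at most 2 of 4 markers had a read, was higher in them. The part of either in the Lin28b values was not tested.

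In the untreated comparison 0 of the 7 members tested passed an adjusted p of 0.05 (background: 0.00634% of all genes) and 0 had an unadjusted p under 0.01 (5.46%), and the groups did not overlap in 1, Igf2bp1 (13.2%). Without M 2 the counts were 1 (12.4%), 2 (14.6%) and 4 (37.1%). In the vehicle comparison 0 of 7 passed the adjusted threshold (0.00611%), 0 had an unadjusted p under 0.01 (2.85%) and 0 had groups without overlap (5.66%). Without the libraries at control level these counts were 1 (5.82%), 1 (9.09%) and 2 (18.4%). The called member was Lin28b in both comparisons, and a single call is the smallest share above 0 that 7 genes can show. The 4 members whose groups did not overlap in M 3 and M 4 against C were Lin28b, Hmga2, Igf2bp1 and Nr6a1. With all libraries DESeq2 also called 0 of 7 in each comparison, and edgeR gave an unadjusted p under 0.05 for 2 members in the untreated (background: 16%) and 1 in the vehicle comparison (9.46%).

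**Figure D2:**
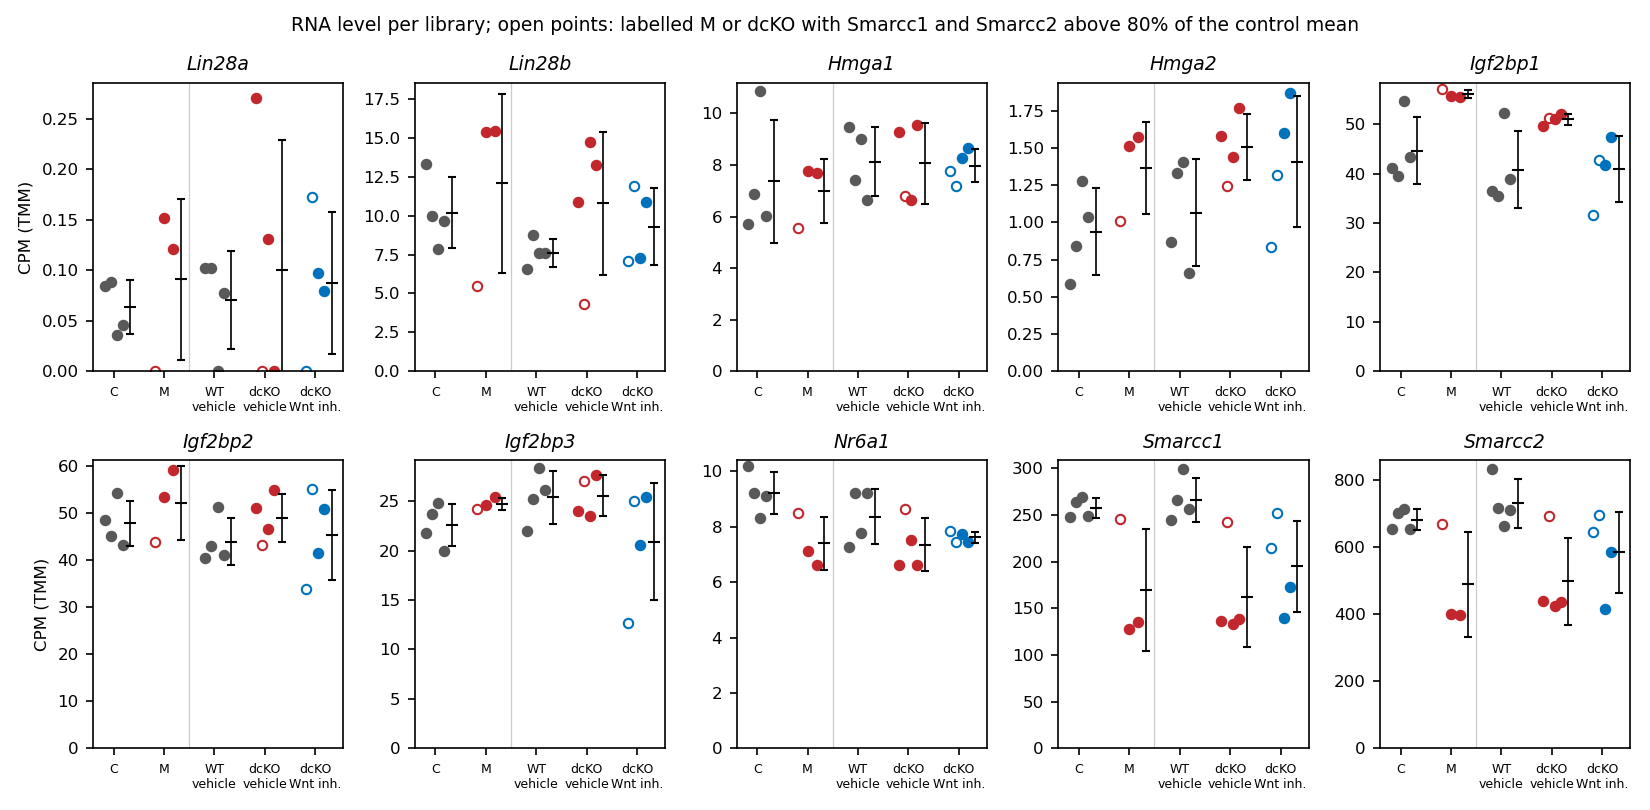
RNA level in CPM (scaled to library size, linear axis from 0) of the 8 members and of Smarcc1 and Smarcc2 in each library of the 5 groups, with mean and SD beside the points. Open points are the libraries labelled M or dcKO whose Smarcc1 and Smarcc2 lay above 80% of the control mean, and for Lin28b those of M and dcKO vehicle, at 5.46 and 4.32 CPM, sit below all controls while the filled points sit at 10.9 to 15.5 CPM in M and dcKO vehicle.

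Of the AT-hook genes, Hmga2 (ENSMUSG00000056758, chr10:120361275-120476469, minus strand) was near its floor and Hmga1 (ENSMUSG00000046711, chr17:27556497-27563674, plus strand) showed no difference past its spread. Hmga2 was 0.588, 0.842, 1.28 and 1.04 CPM in C and 1.01, 1.51 and 1.58 CPM in M 2, M 3 and M 4. It was 0.870, 1.33, 1.41 and 0.659 CPM in wild type vehicle and 1.58, 1.25, 1.44 and 1.77 CPM in dcKO vehicle. The highest libraries were labelled mutant in both experiments, but the ranges met. The changes of 0.57 ± 0.29 (edgeR adjusted p = 0.379) and 0.54 ± 0.29 (edgeR adjusted p = 0.602) did not pass, nor did those without the libraries at control level (0.71 and 0.63, edgeR adjusted p = 0.163 and 0.270), where the groups no longer overlapped. These values rest on 92 reads in C, 91 in M, 77 in wild type vehicle and 134 in dcKO vehicle. Hmga1 ranged from 5.71 to 10.9 CPM in C, from 5.54 to 7.76 CPM in M, from 6.62 to 9.46 CPM in wild type vehicle and from 6.62 to 9.56 CPM in dcKO vehicle. Its log2 changes were -0.06 with a 95% interval of -0.53 to 0.40, and -0.01 with an interval of -0.33 to 0.32.

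Among the Igf2 mRNA-binding proteins, Igf2bp1 (ENSMUSG00000013415, chr11:95957163-96005940, minus strand) had M libraries that were all above the controls. It was 41.1, 39.5, 54.6 and 43.3 CPM in C and 57.1, 55.8 and 55.6 CPM in M. Every M library, M 2 included, exceeded every C library, though C 3 lay just below them. Here the change was 0.33 ± 0.11 (unadjusted p = 0.0115, edgeR adjusted p = 0.193). In wild type vehicle it was 36.5, 35.5, 52.3 and 38.9 CPM and in dcKO vehicle 49.6, 51.2, 51.0 and 52.2 CPM, where wild type 3 exceeded all 4 libraries labelled dcKO. The change was 0.33 ± 0.14 (unadjusted p = 0.035, edgeR adjusted p = 0.471) and 0.32 without the libraries at control level. Control library 3 was the highest control for Igf2bp1 and for Igf2bp2 in both experiments, and its Igf2bp1 value set the overlap.

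Igf2bp2 (ENSMUSG00000033581, chr16:22059009-22163299, minus strand) and Igf2bp3 (ENSMUSG00000029814, chr6:49085223-49214957, minus strand) had overlapping ranges in both genotype comparisons. Igf2bp2 was 43.3 to 54.2 CPM in C and 43.8 to 59.2 CPM in M, and 40.5 to 51.3 CPM in wild type and 43.3 to 54.8 CPM in dcKO vehicle. Its log2 changes had 95% intervals of -0.09 to 0.35 and -0.12 to 0.44. Igf2bp3 was 19.97 to 24.8 CPM in C and 24.2 to 25.4 CPM in M, and 21.9 to 28.4 CPM in wild type and 23.5 to 27.6 CPM in dcKO vehicle. Its intervals were -0.05 to 0.31 and -0.34 to 0.36. Neither gene passed the test.

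Nr6a1 (ENSMUSG00000063972, chr2:38723370-38927688, minus strand), the member with the most let-7 matches, had negative values in both comparisons. It was 10.2, 9.22, 8.33 and 9.13 CPM in C and 8.48, 7.12 and 6.62 CPM in M, where M 3 and M 4 lay below every control. It was 7.26, 9.21, 7.77 and 9.22 CPM in wild type vehicle and 6.63, 8.64, 7.54 and 6.62 CPM in dcKO vehicle, where the ranges met. The log2 changes were -0.33 ± 0.13 (unadjusted p = 0.0309, edgeR adjusted p = 0.266) and -0.19 ± 0.13 (edgeR adjusted p = 0.749). Without the libraries at control level they were -0.42 ± 0.13 (unadjusted p = 0.0079, edgeR adjusted p = 0.0591) and -0.28 ± 0.13 (edgeR adjusted p = 0.345). No member passed a test of the difference between the untreated and the vehicle effect (differences of -0.12 to 0.24, edgeR adjusted p of 1.0 in 16156 genes). That test takes the libraries of both experiments as independent, which the shared deviations go against, so nothing is read from it.

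**Figure D3:**
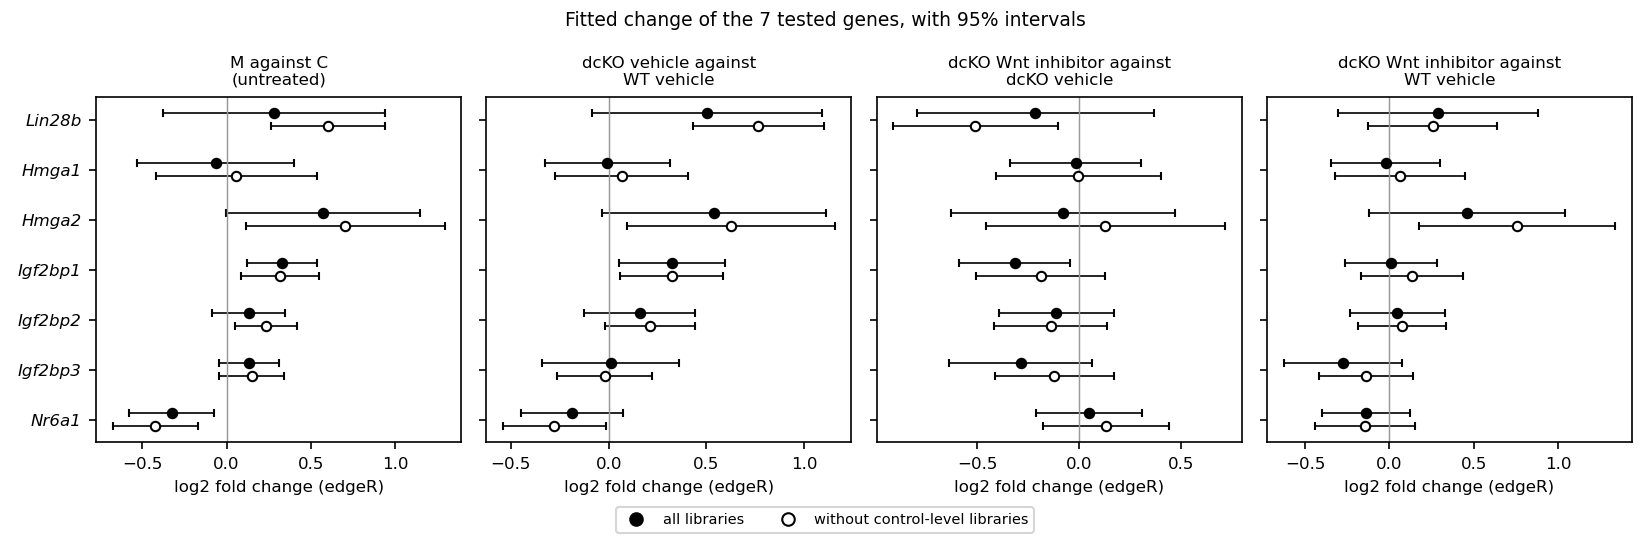
Fitted log2 fold changes of the 7 tested members with 95% intervals (x axis, log2 scale) in the 4 comparisons, with all libraries (filled) and without the libraries at control level (open). The open Lin28b points lie at 0.60 and 0.76 in the genotype comparisons and at -0.51 in the inhibitor comparison.

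Under the Wnt inhibitor, set against dcKO vehicle (the group that also enters the vehicle comparison), Igf2bp1 was lower and Lin28b and Igf2bp3 had the next largest differences, none of which passed the test. Igf2bp1 was 31.6, 42.8, 41.8 and 47.4 CPM against 49.6 to 52.2 CPM in dcKO vehicle, so the groups did not overlap. The change was -0.32 ± 0.14 (unadjusted p = 0.0387, edgeR adjusted p = 0.292). Igf2bp3 was 12.7, 25.03, 20.6 and 25.4 CPM against 23.5 to 27.6 CPM (-0.29 ± 0.18, edgeR adjusted p = 0.453), and Igf2bp2 was 33.9, 55.2, 41.5 and 50.8 CPM against 43.3 to 54.8 CPM. For all 3 Igf2bp genes the lowest library was Wnt inhibitor 1. That library also had 850 CPM summed over 7 choroid plexus markers, all 7 detected, against 164, 485 and 12.3 CPM in the other inhibitor libraries and 7.08 to 11.6 CPM in dcKO vehicle (up to 131 CPM in wild type), and the part of this tissue in these values was not tested. Without Wnt inhibitor 1 the Igf2bp1 change was -0.21 and the Igf2bp3 change -0.11. Lin28b was 7.12, 11.9, 7.29 and 10.9 CPM with the inhibitor, which gave -0.21 ± 0.30 (edgeR adjusted p = 0.759) with all libraries and -0.51 ± 0.21 (unadjusted p = 0.0323, edgeR adjusted p = 0.230) without the 3 libraries at control level. Only 2 inhibitor libraries remain in that fit. Leaving out single libraries from the fit of all libraries moved its Lin28b value of -0.21 between -0.48 (without dcKO vehicle 2) and -0.03 (without dcKO vehicle 3). Hmga2 was 0.837, 1.32, 1.60 and 1.87 CPM, Hmga1 7.18 to 8.65 CPM and Nr6a1 7.45 to 7.83 CPM with the inhibitor, with changes between -0.08 and 0.05.

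In this comparison 0 of 7 members passed the adjusted threshold (background: 0.055%), 0 had an unadjusted p under 0.01 (4.65%) and 1, Igf2bp1, had groups without overlap (8.51%). Without the libraries at control level the counts were 0 (1.02%), 0 (7.2%) and 2 (47.2%), namely Lin28b and Igf2bp1. Against wild type vehicle, which shares its inhibitor libraries with the comparison above, 0 of 7 passed (0.0977%) and 0 had an unadjusted p under 0.01 (6.72%), and without the libraries at control level both counts were again 0 (7.38% and 11.9%). DESeq2 called 0 of 7 in each of these 4 fits, and edgeR gave an unadjusted p under 0.05 for 1 member, Igf2bp1, against dcKO vehicle (background: 15.8%) and for 0 against wild type (19.8%) with all libraries. The largest values there were 0.46 ± 0.30 for Hmga2 (edgeR adjusted p = 0.403) and 0.29 ± 0.30 for Lin28b (edgeR adjusted p = 0.619), while Igf2bp1 stood at 0.01 ± 0.14. Hmga2 was at 0.76 ± 0.30 (edgeR unadjusted p = 0.0287, adjusted p = 0.151) without the libraries at control level, where the groups did not overlap. Single omissions from the fit of all libraries moved its Hmga2 value of 0.46 between 0.26 (without wild type 4) and 0.63 (without Wnt inhibitor 1). By edgeR, 1 gene passed the adjusted threshold in the untreated and 1 in the vehicle comparison with all libraries.

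The wider let-7 and growth pathway was read from lists of companion genes. These lists were chosen with earlier results of these data known, so their calls are not an independent reading. With all libraries no gene of the let-7 machinery, the other let-7 targets, the let-7 host RNAs, the Igf axis, the early neuroepithelial or the late gliogenic list passed the test in any of the 4 comparisons. By edgeR, an unadjusted p under 0.05 was found for 17 of 73 genes in the untreated comparison and for 16 of 74 in the vehicle comparison, 16 of 74 against dcKO vehicle and 22 of 74 against wild type under the inhibitor. Over all genes tested the shares were 16%, 9.46%, 15.8% and 19.8%. The values nearest to it in the untreated comparison were those of Ccnd1, which encodes cyclin D1 (0.51, edgeR adjusted p = 0.093), Plagl1, an imprinted zinc finger gene (0.81, edgeR adjusted p = 0.093), and Tfap2c (1.45, edgeR adjusted p = 0.096). Without the libraries at control level the picture differed between lists, as did the share of all genes called. Of all genes tested, 892 rose and 1102 fell of 16024 in the untreated comparison, 416 rose and 562 fell of 16815 in the vehicle comparison, and 51 rose and 121 fell against dcKO vehicle and 448 rose and 793 fell against wild type under the inhibitor.

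The list of genes that make, block or use let-7, from which the members Lin28a and Lin28b are left out, held no gene that passed the test between genotypes. Of 14 genes tested, 0 rose and 0 fell in the untreated and in the vehicle comparison without the libraries at control level. The list medians were 0.02 and 0.03, beside -0.0004 and -0.008 for all genes. Dicer1, which cuts the let-7 precursor, was at 0.05 and 0.02, and Tut4, the terminal uridylyl transferase that acts with LIN28, at 0.15 and 0.13. Under the inhibitor, Ago2, the slicing Argonaute, fell by 0.76 (edgeR adjusted p = 0.0296) against dcKO vehicle in this reduced set, with the choroid plexus values above beside it. The 6 let-7 host or precursor RNAs tested had medians of -0.52 (5 negative) and -0.60 (4 negative) in the untreated and vehicle comparisons of this reduced set. In each genotype comparison 0 rose and 1 fell. These were Mir99ahg in the untreated comparison (-0.76 ± 0.12, edgeR adjusted p = 0.00265) and Mirlet7c-2 in the vehicle comparison (-1.22 ± 0.32, edgeR adjusted p = 0.0499, at 0.436 against 1.0 CPM). Huwe1, a ubiquitin ligase gene that hosts let-7f-2 and miR-98, was at -0.03 and 0.01, and fell by 0.52 under the inhibitor (edgeR adjusted p = 0.0472). Mature let-7 itself is not measured by these libraries.

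Of 20 other genes named as let-7 targets, 2 rose and 2 fell in the untreated comparison without M 2, with a list median of -0.01. Ccnd1 (0.60, edgeR adjusted p = 0.000953) and Dna2, a replication helicase and nuclease (0.50), rose, and Cdc25a, a cell cycle phosphatase (-0.66), and Tgfbr1, the type I TGF-beta receptor (-0.87), fell. In the vehicle comparison Ccnd1 rose (0.65, edgeR adjusted p = 0.00221) and Cdc25a fell (-0.56), and the list median was -0.05. The list thus held calls in both directions. At least 1 let-7 match was found in the 3′ UTR of 17 of these 20 genes.

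In the Igf axis, 3 of 17 genes rose and 2 fell in each of the genotype comparisons without the libraries at control level, and the same 5 genes passed in both, which share deviations as said above. Plagl1 rose by 0.96 and 0.83, Grb10, an adaptor that dampens insulin and Igf receptor signalling, by 0.67 and 0.75, and Irs1, a receptor substrate, by 0.58 and 0.60. Igfbp3, a secreted Igf-binding protein, stood at -0.86 and -0.85, and Irs2 at -0.39 and -0.41. Igf2, the message after which the IGF2BP proteins are named, was at -0.13 and -0.25 and did not pass.

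Of 11 tested early neuroepithelial genes, 5 rose and 0 fell in the untreated and 3 rose and 0 fell in the vehicle comparison without the libraries at control level, with medians of 0.40 and 0.30. Tfap2c, whose protein AP2γ marks neural stem cells of the ventricular zone in the study, rose by 1.68 ± 0.16 and 1.53 ± 0.17. Fzd5, a Wnt receptor, rose by 1.36 ± 0.17 and 1.52 ± 0.16. Zic2 rose in the untreated comparison (0.69, against 0.52 with an edgeR adjusted p of 0.125 in the vehicle comparison), and Ocln, which encodes the tight junction protein occludin, rose in both (0.53 and 0.80). The study itself reports higher Ocln and more AP2γ-positive cells in this mutant, so the rise of Ocln and Tfap2c is not separate evidence. Trim71, itself a heterochronic gene, was at 0.40 and 0.19 and did not pass. Of the 12 genes of late timing and gliogenesis, 3 rose and 5 fell in the untreated comparison. Nfix, Nfia and Zbtb20, factors of late radial glia and hippocampal or astroglial fate, fell by 0.54, 0.56 and 0.43, while Sox9 and Id3 rose by 0.44 and 0.60. In the vehicle comparison 0 rose and 2 fell, Aqp4 (-1.36) and Nfix (-0.52). The list medians were -0.37 and -0.38.

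Under the inhibitor, without the libraries at control level, 4 of 75 companion genes passed against dcKO vehicle (background: 1.02% of all genes) and 14 of 75 against wild type vehicle (7.38%). Against dcKO vehicle, Igfbp3 rose by 0.68 and Igfbp5 fell by 0.85, while no early neuroepithelial, late gliogenic or other let-7 target gene passed. Against wild type vehicle, 3 early neuroepithelial genes rose, Fzd5 (1.74), Crabp2 (1.28) and Tfap2c (1.22), and 0 fell. In the Igf axis H19 (0.84) and Grb10 (0.50) rose and Igfbp5 (-0.93), Igf2r (-0.42) and Irs2 (-0.47) fell. Of the late gliogenic genes Fabp7 rose (0.60) and Zbtb20 (-0.81) and Aqp4 (-1.12) fell. Ccnd1 rose (0.40) among the other let-7 targets, Ago2 fell (-0.68) in the machinery and Huwe1 fell (-0.51) among the host RNAs. The inhibitor libraries in both fits are replicates 3 and 4, with 485 and 12.3 CPM of choroid plexus markers.

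**Figure D4:**
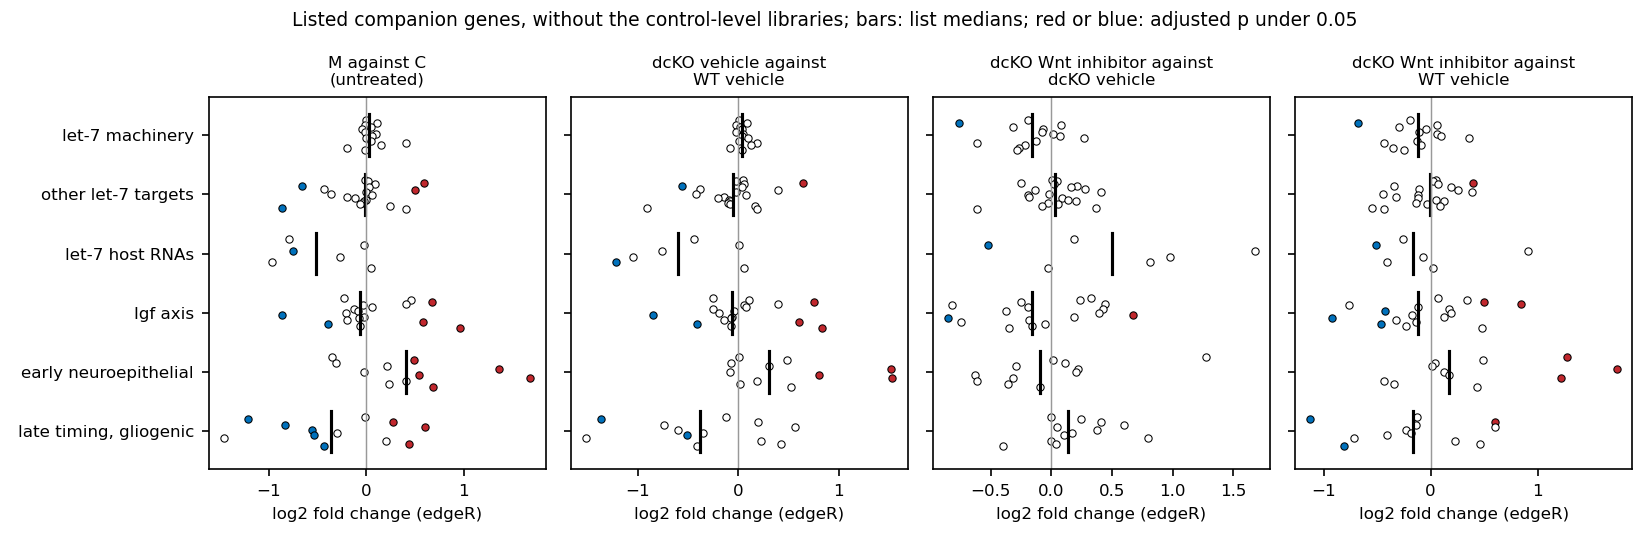
Log2 fold changes (x axis, log2 scale) of the companion genes by list in the 4 comparisons without the libraries at control level, with a point for each gene, coloured where its edgeR adjusted p was under 0.05, and a bar at each list median. In the genotype comparisons the early neuroepithelial genes have medians of 0.40 and 0.30 and the let-7 machinery medians of 0.02 and 0.03.

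Lin28b and Hmga2 carried H3K27me3 at a start site in all 8 ChIP-seq libraries. Peaks within 2000 bp of a transcription start site (TSS) were found for Lin28b and Hmga2 in 4 control and 4 dcKO libraries, for Lin28a in 4 and 3, for Nr6a1 in 3 and 3, for Hmga1 and Igf2bp1 in 3 and 2, for Igf2bp2 in 1 and 2, and for Igf2bp3 in 0 and 1. Among 21938 protein-coding genes, 3.10% had such a peak in all 8 libraries, 11.8% in at least 6 and 41.0% in at least 1. The 3 members at the bottom of the RPKM order (Nr6a1, Hmga2 and Lin28a) and Lin28b were those with a peak in 6 or more libraries. This is a description across 8 genes. The libraries differ in quality, since the authors kept 12.3% to 18.0% of tags in control 1 and 3 and dcKO 1 and 2, against 32.8% to 66.5% in the others, and peaks numbered 6674 to 46000.

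At Hmga2 the peak lay over the promoter, within chr10:120473180-120479651 (mm10), and was the strongest of all member regions. Fold enrichment over input was 16.5, 5.24, 6.71 and 4.86 in control 1 to 4 and 20.1, 4.26, 4.86 and 10.8 in dcKO 1 to 4. The groups overlapped throughout, with the highest value of each in replicate 1. The log2 difference was 0.17 ± 0.56 (limma adjusted p of 1.0). A second Hmga2 region inside the gene, chr10:120385685-120393199, was present in all 8 libraries at 3.72 to 6.11 in controls and 3.99 to 5.11 in dcKO (-0.09 ± 0.75). At Lin28b the region over the 5′ end of the gene, chr10:45483637-45492733, had 14.6, 4.72, 7.45 and 3.94 in controls and 19.3, 5.84, 3.94 and 5.72 in dcKO (0.08 ± 0.60). A second Lin28b region around an internal start site, chr10:45467786-45476151, had a peak in all 4 controls (3.97, 5.27, 4.09 and 4.88) but only in dcKO 3 and 4 (5.10 and 5.56).

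That internal Lin28b region gave the largest difference of the 16 member regions, -0.97 ± 0.88 on the log2 scale (unadjusted p = 0.269). The dcKO libraries without the peak are both among those with under 30% of tags kept, where the log2 means were 2.01 in controls and 0 in dcKO, and within the libraries over 30% they were 2.34 in controls and 2.41 in dcKO. The 16 regions belong to 7 members, since Igf2bp3 had none with a peak in 2 or more libraries, with 8 having the higher mean in dcKO (of all 22220 regions, 13286 or 59.8% did). None had an adjusted p under 0.05 (background: 0%) or an unadjusted p under 0.01 (0.009%, which is 2 regions), and limma found 49 regions at an unadjusted p under 0.05 in all. That is far fewer than this threshold would give among 22220 regions without any difference. The test could thus hardly call a region, and the absence of calls is not a measured lack of change. Differences ran from -0.97 to 0.52, the latter at Nr6a1 (chr2:38922221-38926379), where dcKO 1 and 4 had 11.1 and 8.97 and the 3 controls with a peak 4.69 to 4.94. The 95% interval of the Nr6a1 difference was -1.09 to 2.13, so a difference of this size was not detectable with these peak lists.

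**Figure D5:**
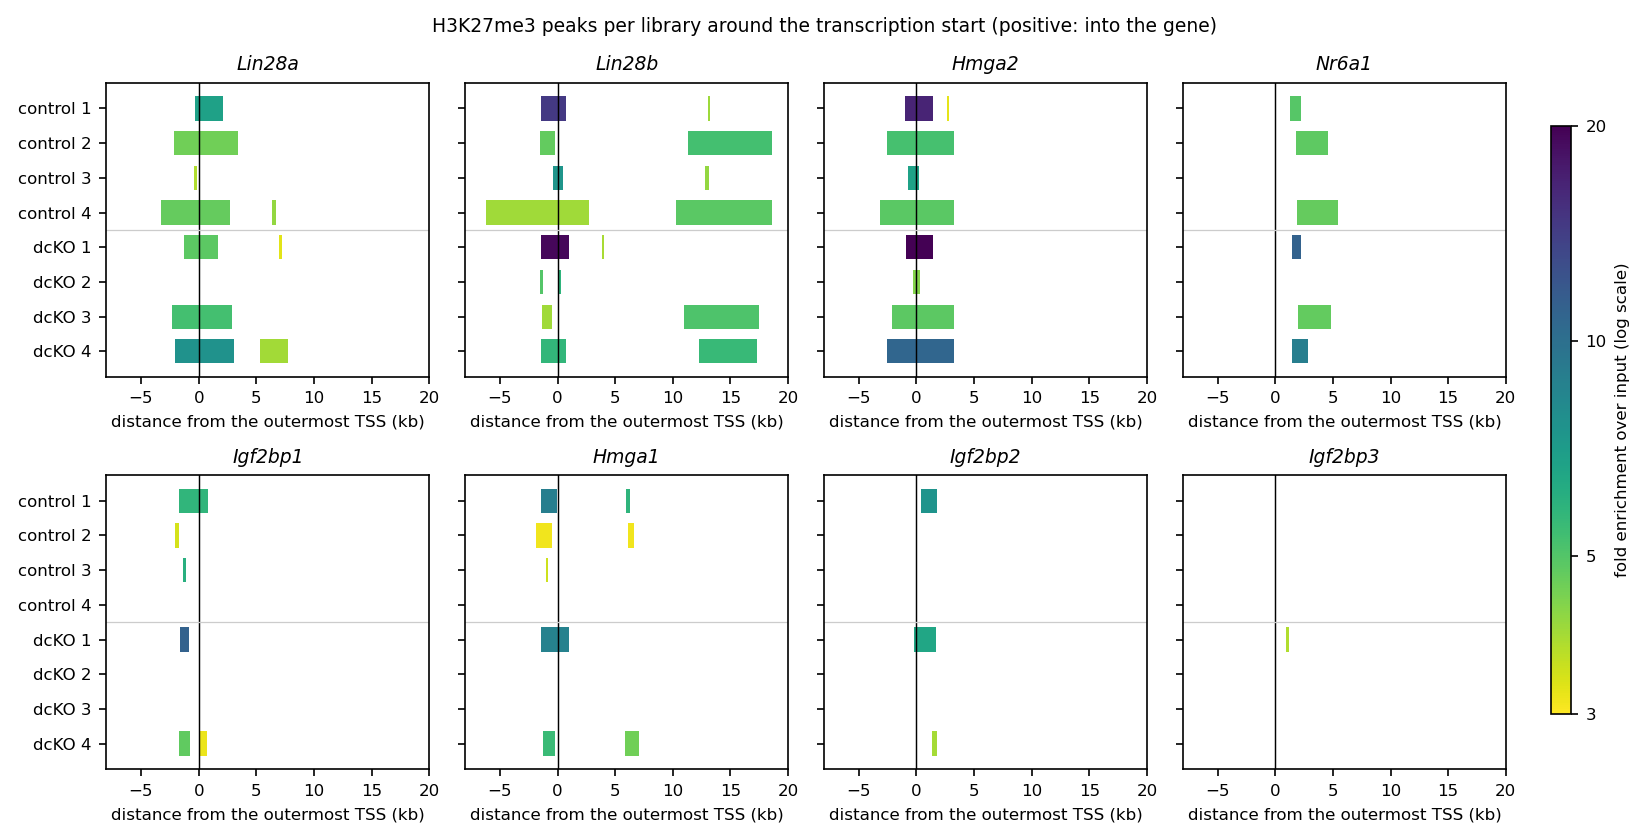
H3K27me3 peaks of each of the 8 libraries around the 5′ end of each member, with the distance in kb from the outermost TSS on the x axis (positive into the gene) and colour for fold enrichment over input on a log scale. Lin28b and Hmga2 have a peak at the start in all 8 libraries and Igf2bp3 has 1 small peak in dcKO 1, and peaks beyond 20 kb into a gene are not drawn.

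To set the marked promoters beside an unmarked one, RefSeq promoter entries (GRCm38.p6, 250 bases before to 50 after a start) were read for 7 of the 8 members. Igf2bp1 had no entry. Each is given 5′ to 3′ with CG dinucleotides in capitals. The Hmga2 promoter, chr10:120476420-120476719, had a peak in 4 control and 4 dcKO libraries and holds 12 CG dinucleotides, and that of Lin28a, chr4:134018767-134019066, had a peak in 4 and 3 libraries and holds 10. The Igf2bp3 promoter, chr6:49214905-49215204, had none and holds 25. All 3 are on the minus strand:
Hmga2 promoter: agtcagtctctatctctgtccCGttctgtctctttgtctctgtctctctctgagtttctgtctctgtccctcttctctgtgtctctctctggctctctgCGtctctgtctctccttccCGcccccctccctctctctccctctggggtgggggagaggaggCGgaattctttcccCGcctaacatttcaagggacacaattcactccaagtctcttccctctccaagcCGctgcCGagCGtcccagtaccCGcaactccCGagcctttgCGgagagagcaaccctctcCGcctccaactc
Lin28a promoter: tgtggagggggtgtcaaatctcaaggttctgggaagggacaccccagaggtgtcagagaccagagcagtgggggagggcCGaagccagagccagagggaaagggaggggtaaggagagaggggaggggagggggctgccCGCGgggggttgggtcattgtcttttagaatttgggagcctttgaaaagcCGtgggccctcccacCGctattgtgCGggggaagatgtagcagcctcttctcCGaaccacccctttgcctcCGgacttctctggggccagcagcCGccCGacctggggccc
Igf2bp3 promoter: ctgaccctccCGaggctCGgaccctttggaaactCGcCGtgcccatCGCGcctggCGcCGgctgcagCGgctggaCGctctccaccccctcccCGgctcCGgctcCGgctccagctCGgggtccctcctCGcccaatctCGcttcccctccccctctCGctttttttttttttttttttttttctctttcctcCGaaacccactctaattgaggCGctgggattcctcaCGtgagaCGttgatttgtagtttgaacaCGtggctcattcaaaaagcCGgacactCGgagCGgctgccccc
Among 32851 promoters of this length the median was 7 CG dinucleotides, and 39.6%, 43.5% and 18.4% of them held at least as many as Hmga2, Lin28a and Igf2bp3. The promoters with the most CG, those of Igf2bp2 (47) and Hmga1 (40 and 38 for its 2 starts), had a peak over these 300 bases in 1 and 2 libraries. Both Nr6a1 entries, with 8 and 10 CG, had none over these bases, though Nr6a1 had a peak within 2000 bp of a TSS in 3 control and 3 dcKO libraries. The Lin28b entry, with 8 CG at the internal start, had a peak in 2 control and 2 dcKO libraries. The region over the 5′ end of Lin28b, with a peak in all 8 libraries, had no entry. Few CG and a peak over an entry thus did not go together throughout, and the entries miss some marked starts.

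The genes most alike to each member across the 12 treated libraries were found by the root mean square difference of standardised log2 CPM, over 14518 genes. For Lin28b these were Pid1 (0.357) and Rasgrp1 (0.408), for Hmga2 Btg2 (0.236) and Gm11335 (0.421), and for Igf2bp1 Gstcd (0.340) and Rcbtb2 (0.398). For Igf2bp2 they were Clic4 (0.321) and Spata13 (0.341), for Igf2bp3 Rnf111 (0.200) and Stk24 (0.228), for Nr6a1 Srgn (0.463) and Cyp1b1 (0.4664), and for Hmga1 Ribc1 (0.603) and Zkscan5 (0.682). The median over all genes lay between 1.34 and 1.38 for every member. No member was among the 2 nearest genes of another, and the 12 libraries share batches and depth, so likeness here is a description only.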

How the data were processed

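RNA-seq libraries (TruSeq RNA v2) were mapped by the authors to mm10 with STAR and counted per Ensembl gene with featureCounts, and the deposited tables hold raw read counts without normalization (38355 genes untreated, 48709 treated). H3K27me3 libraries were handled singly by the authors, with broad MACS2 calling (q-value limit 0.1, input pooled by genotype, 1 tag kept per position). The deposited peak lists carry a fold enrichment (the ratio to input), a pileup signal and a -log10 q-value for every peak.

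Counts were fitted with edgeR 4.0.16 (TMM, filterByExpr, quasi-likelihood, robust) in R 4.3.3, the 7 untreated libraries by themselves (15770 genes tested) and the 12 treated libraries together (16372), with Benjamini-Hochberg adjustment over all genes. Overlapping peaks were merged, regions found in 2 or more libraries were kept, a library without a peak was set to a fold enrichment of 1, and log2 values were tested with limma 3.58.1. Alternatives were DESeq2 1.42.0, other scalings, filters, blocks and omitted libraries. Gene models, TSS and 3′ UTRs came from GENCODE M21 on GRCm38 (the build of mm10), and microRNAs and promoters from RefSeq. Same-numbered samples did not deviate together throughout within an experiment, so no block was used in the main fits. Their r was -0.311 to -0.033 untreated, -0.176 to 0.403 treated and -0.323 to 0.579 for H3K27me3. Other pairs had -0.148 to 0.232, -0.375 to 0.240 and -0.496 to 0.513. The highest values were those of replicate 1. Wild type had 0.382 with dcKO vehicle and 0.403 with Wnt inhibitor, and H3K27me3 had 0.579. Replicate 1 of dcKO vehicle with Wnt inhibitor had only 0.078. The edgeR and limma steps were tested on simulated data. Tables were joined with Python 3.11.15, pandas 2.3.3 and numpy 2.4.6.

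The members and the companion lists were chosen with earlier results of these data known. The genes named are the 8 members, Smarcc1 and Smarcc2, up to 3 genes per list and direction with the smallest p among those past the threshold (up to 2 where none passed), and the 2 genes most alike to each member. Dicer1, Tut4, Huwe1, Igf2 and Trim71 were also named, for their role in the pathway, after their values were seen. H3K4me2 was not analysed here.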

Additional observations from a re-analysis of the deposited data

Results flagged for a closer look

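Of 72 sets of 4 libraries examined for a single value far from the rest, 9 had one. For continuous values chance gives about 1 in 20, but this rate does not apply to the H3K27me3 sets, where libraries without a peak share the value 0. The libraries of dcKO vehicle gave both values at the RNA level, since replicate 2 had 242 CPM of Smarcc1 and 692 CPM of Smarcc2 and stood above the other 3. All other values were log2 fold enrichments of H3K27me3, where 0 means that no peak was listed in that library. Among the dcKO libraries, a peak was listed in replicate 4 alone at Hmga1 (chr17:27562352-27563532, 2.17) and at the intragenic Hmga2 region chr10:120405958-120407653 (1.78). Among the controls, replicate 3 alone had no peak listed (0) at the Hmga2 regions chr10:120413494-120421388 and chr10:120425030-120429756 and at Nr6a1 (chr2:38922221-38926379). Control 1 was the only control with a peak at Igf2bp2 (chr16:22161503-22163481, 2.90), and control 4 the only one at the second Lin28a region (chr4:134011081-134013483, 2.03). No explanation for these values was tested.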

How the results depend on the processing

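Calls among the 7 tested members depended on which libraries entered. Without the libraries at control level, an alternative chosen after the data were seen, the count of members called rose from 0 to 1 (Lin28b) in the untreated and the vehicle comparison, by edgeR and by DESeq2, and leaving out single libraries gave 0 to 1 in the untreated comparison (1 without M 2) and 0 in the others. Under that alternative the sign turned for Hmga1 (by edgeR and DESeq2, 0.058 and 0.063 untreated, 0.066 and 0.072 vehicle, 0.063 and 0.059 against wild type), for Igf2bp3 (vehicle, -0.020 and -0.015) and for Hmga2 (inhibitor, 0.13 and 0.12), none of which passed. Other settings turned Hmga1 in the vehicle comparison (0.0056 without a filter, 0.00027 by DESeq2) and, with a lane block, Igf2bp1 (-0.11) and Igf2bp2 (-0.060) against wild type. The replicate block called 0 members, with Lin28b at 0.32, 0.48, -0.20 and 0.28 in the 4 comparisons, and the numbers did not pair the samples throughout. Outside the omission of single libraries, 192 values of member genes kept their sign and their side of the threshold, 14 turned and 4 (Lin28b) passed it.

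Leaving out 1 library at a time gave ranges that crossed 0 for Hmga1 (-0.17 to 0.19 untreated, -0.092 to 0.080 vehicle, -0.10 to 0.067 inhibitor, -0.11 to 0.059 against wild type), Hmga2 (-0.25 to 0.095 inhibitor), Igf2bp1 (-0.072 to 0.14 against wild type), Igf2bp2 (-0.22 to 0.0053 inhibitor, -0.061 to 0.16 against wild type), Igf2bp3 (-0.053 to 0.067 vehicle) and Nr6a1 (-0.0032 to 0.14 inhibitor). Lin28b ran from 0.08 to 0.60 untreated and from 0.32 to 0.77 vehicle.

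For H3K27me3 no setting called a member region. With peaks of -log10 q above 2 only, the sign turned at Hmga2 120385685 (1.01), Hmga1 27554611 (0.60) and the Lin28a regions at 134011081 (-0.016) and 134015396 (0.11). Merging across gaps of up to 1000 bp turned Hmga2 120410006 (-0.36), 120413494 and 120425030 (0.42 each, now 1 region) and Igf2bp1 (-0.29). Pileup turned Lin28b 45483637 (-0.0039) and centring turned Hmga2 120375419 (-0.034). Single omissions crossed 0 at Hmga1 27554611 (-0.83 to 0.25), Hmga2 120375419 (-0.33 to 0.38), 120385685 (-0.20 to 0.034), 120410006 (-0.37 to 0.50) and 120473180 (-0.27 to 0.56), Igf2bp1 (-0.53 to 0.63), Igf2bp2 (-0.075 to 1.16), Lin28a 134015396 (-0.71 to 0.27), Lin28b 45483637 (-0.40 to 0.46) and Nr6a1 (-0.044 to 1.26). The cause was not tested. Depth limits Lin28a, with at most 6 reads a library, and Hmga2, with 12 to 47.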
